A study of Mus musculus with 8 samples.

Results

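The NF-κB family in mouse lung neutrophils is described here through 10 genes: the 5 subunits Rela, Rel, Relb, Nfkb1 and Nfkb2, the 3 cytoplasmic inhibitors Nfkbia, Nfkbib and Nfkbie, and the nuclear IκB proteins Nfkbiz and Bcl3. Members were found by matching the RefSeq identifier of each row to these symbols. All 10 had a single matched row, out of 24625 rows and 19836 named genes in the table. The cells came from lung digests of wild type (WT) mice aged 6 to 12 weeks by the labels, while the methods give a narrower age range. The methods name colonies founded with female C57BL/6J mice and sex-matched animals. The cells were held on a magnetic column by an antibody to the neutrophil protein Ly6G. One group had received Streptococcus pneumoniae (SP), a common cause of bacterial pneumonia, and the other phosphate-buffered saline (PBS), the liquid in which the bacteria were suspended. The left lung received either liquid by tracheal instillation, in a volume of 2.3 µl for each g of mouse, and neutrophils were isolated 24 h later. Each group comprised 4 samples with 1 Affymetrix Mouse Gene 1.1 ST array each, and precision is limited by this number. The study describes every array sample as taken from a mouse, and the 4 samples of a group were treated as separate animals.

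NF-κB proteins are dimers of Rel family subunits that bind κB sites in DNA. In a resting cell IκB proteins hold the dimers in the cytoplasm. Signals from bacterial products, interleukin 1 or tumor necrosis factor activate the IκB kinases, the IκB proteins are degraded, and the dimers enter the nucleus. Rela, Rel and Relb carry transactivation domains, whereas Nfkb1 and Nfkb2 encode precursors, p105 and p100, that are processed to the DNA-binding subunits p50 and p52. The canonical pathway releases mainly p50 with RelA or c-Rel, and the non-canonical pathway releases p52 with RelB. Several family genes are themselves NF-κB targets, and resynthesis of IκBα is the best known negative feedback of the system. Neutrophils use this system to make cytokines and to prolong their survival in inflamed tissue. Array values are mRNA levels and do not measure the nuclear protein or its activity.

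All 10 genes had a higher mean in neutrophils from SP lungs. The difference passed an adjusted p of 0.05 for 9 of them by limma, a threshold passed by higher values in 21.5% of all rows. At least 2-fold higher values with that p were found for 7 of 10 members, against 6.37% of all rows, and no member was lower, against 11.3% of all rows that were at least 2-fold lower. In 9 of 10 members every SP value lay above every PBS value, which was the case in 27.2% of all rows. The median difference was 1.40 log2 units over the members and 0.10 over all rows. The members were listed with earlier results of these data known, so these counts describe the family and do not test it as a set. The lowest value of any member on any array was 6.41, above the Y-linked genes of these arrays (4.33 to 4.90), which served as a reference for low signal. The mean of the Y-linked genes was itself slightly higher on SP arrays (4.58 to 4.68) than on PBS arrays (4.42 to 4.53).

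**Figure D1:**
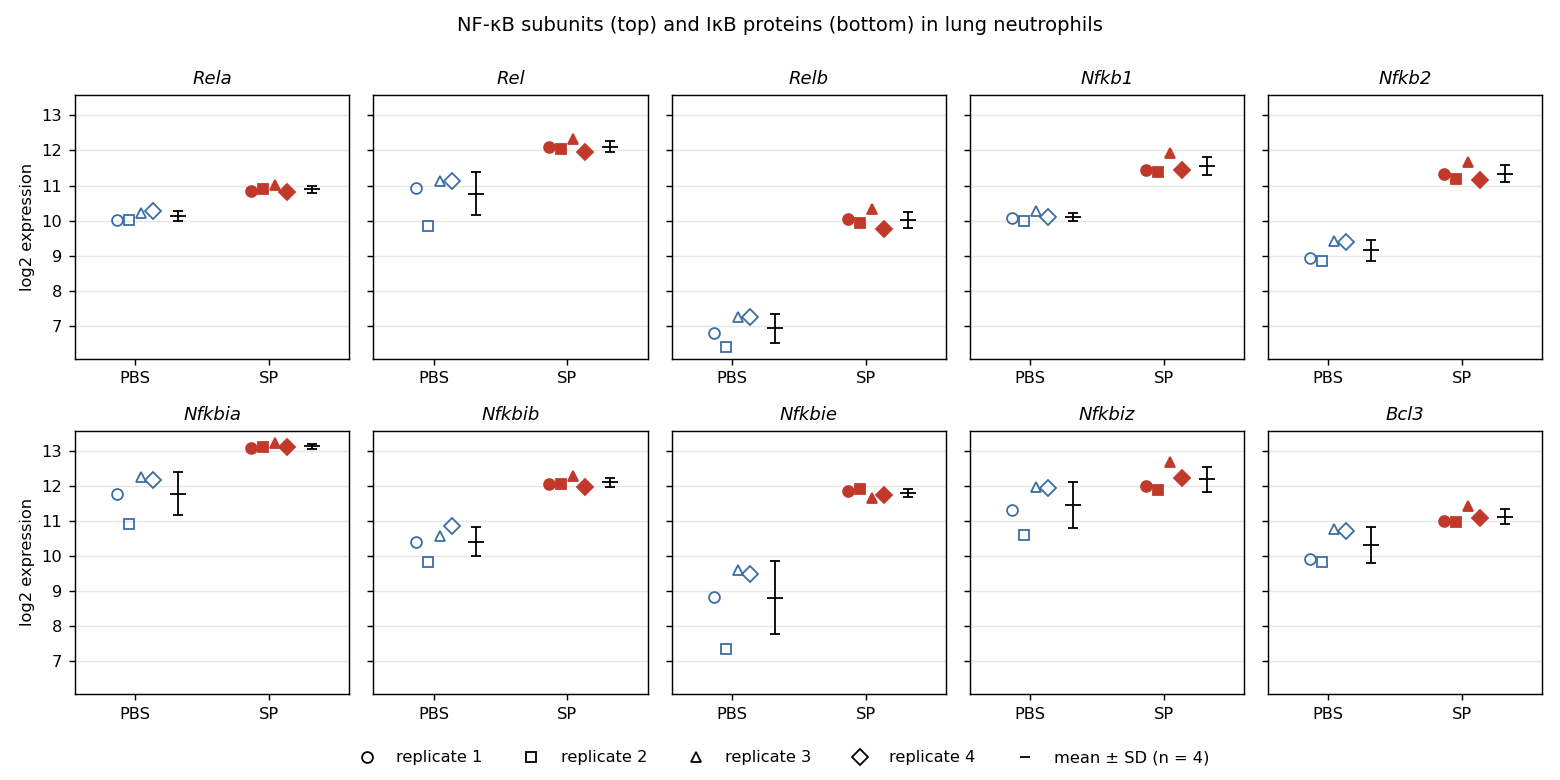
Log2 expression (y axis) of each member on each PBS array (open symbols) and SP array (filled symbols). Symbol shape gives the replicate number, which is not said to pair PBS with SP samples, and the bar gives the mean ± SD of 4 samples. The groups do not overlap in 9 of 10 panels, Nfkbiz being the exception, and PBS replicate 2 (open square) sits lowest of its group in 9 panels.

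Promoter sequences were examined for the κB element because several family genes are known NF-κB targets. RefSeq windows of the GRCm38.p6 assembly, from 250 bases before to 50 bases after an annotated start, were at hand for 7 members (Rela, Rel, Nfkb2, Nfkbia, Nfkbib, Nfkbie and Bcl3). The 10-letter NF-κB consensus was searched on both strands, and overlapping matches were merged. A match was found for 5 of these 7 genes, compared with 1388 of 27025 genes (5.14%) and 1480 of 32851 windows (4.51%) in the whole RefSeq table. Of the NF-κB target genes listed for comparison, 12 of 29 with a window held a match (41.4%). The stretches below, 5′ to 3′ on the strand of the gene, show the matches in capitals with their neighbouring bases. They are chr19:46304677-46304736 (+) for Nfkb2, chr11:23771030-23771089 (-) for Rel, chr12:55492648-55492707 (-) for Nfkbia, chr17:45555580-45555639 (+) for Nfkbie and chr7:19822736-19822765 (-) for Bcl3.
Nfkb2: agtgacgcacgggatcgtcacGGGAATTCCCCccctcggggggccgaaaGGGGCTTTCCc
Rel: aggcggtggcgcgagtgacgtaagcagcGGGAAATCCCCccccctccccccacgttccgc
Nfkbia: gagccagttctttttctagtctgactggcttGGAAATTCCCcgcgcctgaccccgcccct
Nfkbie: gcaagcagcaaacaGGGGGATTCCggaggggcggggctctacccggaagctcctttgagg
Bcl3: agtcggcggcagGGGAAGTCCCgctgcccg

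Nfkb2 was the member with most matched stretches. The first of its 3 annotated starts had 1 match from position -39 to -29 and another from -11 to -2, counted from the start. A further match, at chr19:46305705-46305714, lay in the windows of both other starts, and the second start had 1 more from -236 to -227. The matches of Rel (-92 to -82), Nfkbia (-29 to -20) and Nfkbie (-106 to -97) lay before the start, and that of Bcl3 (3 to 12) just behind it. These letters were not in the windows of Rela and Nfkbib. A match describes the letters of the genome, and binding was not measured.

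Among the transactivating subunits, Relb showed the largest difference and Rela the smallest. Relb, the partner of p52, lay at 6.79, 6.41, 7.24 and 7.25 in PBS replicates 1 to 4 and at 10.05, 9.93, 10.33 and 9.76 in SP replicates 1 to 4. The lowest SP value was thus 2.51 log2 units above the highest PBS value. Relb rose 8.53-fold (3.09 ± 0.21 log2 units, difference ± SE, adjusted p = 1.95e-05 by limma), which put its difference at percentile 99.3 of all rows. Rel, which encodes c-Rel, lay at 10.94, 9.86, 11.12 and 11.13 in PBS and at 12.11, 12.04, 12.33 and 11.96 in SP. Its groups were separate, and 1 PBS sample (replicate 2) lay well below the others. Rel rose 2.54-fold (1.34 ± 0.27, adjusted p = 0.00496), and by 1.04 log2 units without PBS replicate 2. Rela, which encodes p65, the main transactivating subunit of the canonical pathway, lay at 10.01, 10.01, 10.23 and 10.26 in PBS and at 10.84, 10.91, 11.02 and 10.81 in SP. These were the tightest values of the subunits in SP, with an SD of 0.094. Rela rose 1.70-fold (0.77 ± 0.092, adjusted p = 0.000324), which is short of 2-fold.

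The genes of both precursors rose, Nfkb2 more than Nfkb1 by their means. Nfkb2 lay at 8.94, 8.85, 9.43 and 9.38 in PBS and at 11.32, 11.18, 11.68 and 11.15 in SP, with 1.72 log2 units between the groups. It rose 4.54-fold (2.18 ± 0.17, adjusted p = 4.26e-05). Nfkb1 lay at 10.06, 9.97, 10.28 and 10.10 in PBS and at 11.44, 11.38, 11.94 and 11.44 in SP, so that its PBS samples differed by less than its SP samples. It rose 2.72-fold (1.45 ± 0.14, adjusted p = 9.41e-05).

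All 3 cytoplasmic inhibitors rose at least 2-fold, and their SP samples lay close together. Nfkbia, which encodes IκBα, lay at 11.78, 10.90, 12.25 and 12.18 in PBS and between 13.07 and 13.23 in SP. The SD was 0.62 in PBS and 0.071 in SP. Nfkbia rose 2.55-fold (1.35 ± 0.27, adjusted p = 0.00451). Nfkbib, which encodes IκBβ, lay at 10.39, 9.84, 10.57 and 10.85 in PBS and at 12.06, 12.06, 12.29 and 11.97 in SP. It rose 3.22-fold (1.69 ± 0.20, adjusted p = 0.000289). Nfkbie encodes IκBε, the inhibitor described as a delayed feedback on NF-κB. It lay at 8.84, 7.33, 9.61 and 9.47 in PBS and at 11.86, 11.90, 11.66 and 11.74 in SP, so the PBS samples were spread widely (SD 1.04) and the SP samples narrowly (SD 0.11). Nfkbie rose 7.87-fold (2.98 ± 0.45, adjusted p = 0.00107), and by 2.48 log2 units without PBS replicate 2.

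The nuclear IκB proteins act on bound NF-κB dimers as cofactors rather than holding them in the cytoplasm. The differences of Bcl3 and Nfkbiz were under 2-fold. Bcl3, a partner of p50 and p52 homodimers, lay at 9.92, 9.82, 10.78 and 10.71 in PBS and at 10.99, 10.97, 11.42 and 11.10 in SP. The gap between the groups was 0.19. Bcl3 was higher by 1.76-fold (0.81 ± 0.24, adjusted p = 0.0256). That call was lost with array weights (adjusted p = 0.0573) and when PBS replicate 1 (0.0702), PBS replicate 2 (0.0566) or SP replicate 3 (0.0574) was left out, the difference then being 0.69, 0.65 and 0.71. Nfkbiz encodes IκBζ, which is needed for a class of secondary NF-κB targets. It lay at 11.30, 10.60, 11.98 and 11.93 in PBS and at 11.99, 11.88, 12.68 and 12.22 in SP, and the groups overlapped. Its difference of 0.74 ± 0.32 was not called (adjusted p = 0.0889), and it was 0.45 without PBS replicate 2 (adjusted p = 0.166), 0.33 with array weights (0.263) and 0.29 without PBS replicate 2 and SP replicate 3 (0.27). It passed with the replicate number as a block (0.74, adjusted p = 0.0208) and with arrays centred on their medians (1.02, 0.0199). Nfkbid, a further nuclear IκB gene outside the 10, lay at 10.28, 8.62, 11.23 and 11.04 in PBS and between 11.56 and 11.72 in SP. Its difference was above 2-fold but not called (2.55-fold, 1.35 ± 0.51, adjusted p = 0.0598 by limma), although its groups did not overlap. Without PBS replicate 2 the difference was 0.79 (adjusted p = 0.0238).

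**Figure D2:**
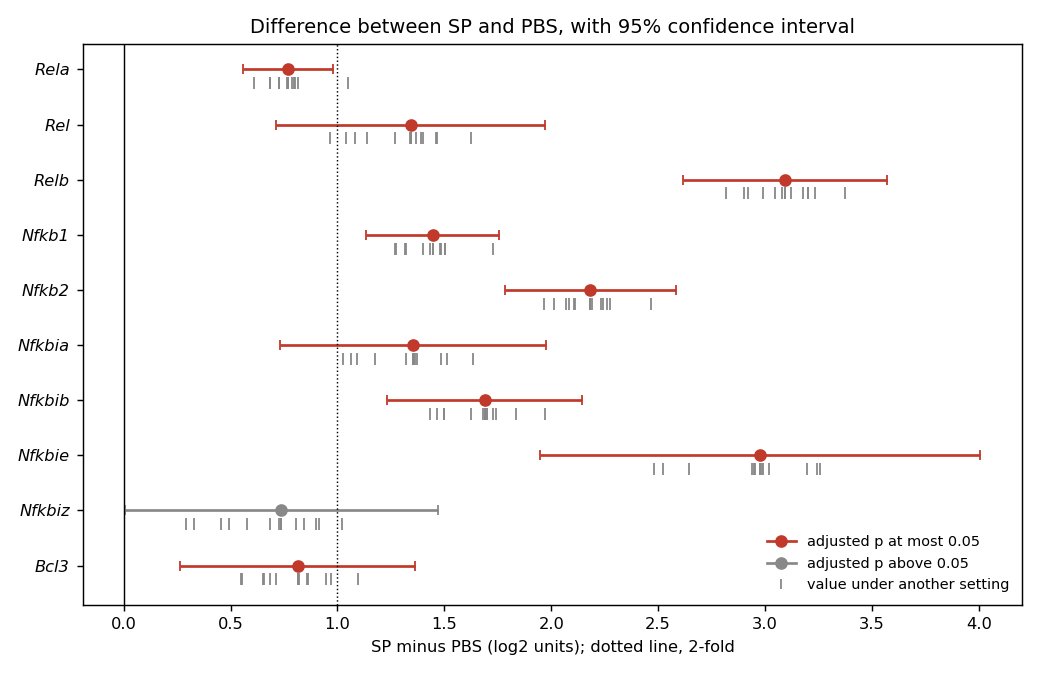
Difference between SP and PBS in log2 units (x axis) for each member, with its 95% confidence interval from limma as a bar and the values under other settings as grey ticks. The intervals of Relb, Nfkb1, Nfkb2, Nfkbib and Nfkbie lie above 2-fold (dotted line), and that of Nfkbiz begins near 0.

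Whether the rise was the same size for related members was asked with 6 pairs, by the difference of their log2 values in each sample. Relb minus Rela shifted by 2.33 between PBS and SP, from -3.20 ± 0.28 to -0.88 ± 0.17 (SD, n = 4 each), so Relb rose 5.01-fold more than Rela (two-sided exact permutation p = 0.0286). Nfkbie minus Nfkbia shifted by 1.62, from -2.96 ± 0.42 to -1.34 ± 0.17 (exact permutation p = 0.0286). Nfkbia was among the brightest rows in SP, with a mean exceeded by 48 rows (0.195%), and whether its rise was compressed near the upper end of the array scale was not tested, so no ratio of rises is given for pairs with it. Nfkb2 minus Nfkb1 shifted by 0.74, from -0.95 ± 0.20 to -0.22 ± 0.070, a 1.67-fold larger rise of Nfkb2 (exact permutation p = 0.0286). In these 3 pairs the samples of the groups did not overlap, and 0.0286 is the smallest p that 70 arrangements allow. Adjusted over the 6 pairs it became 0.0571, so no pair passed the threshold after adjustment. Nfkbib minus Nfkbia shifted by 0.34 (exact permutation p = 0.0571, adjusted 0.0857), and the groups overlapped. For Bcl3 minus Nfkbiz the shift was 0.076 (p = 0.657 by the exact permutation test) and for Nfkb1 minus Nfkbia 0.093 (p = 0.771 by the same exact test). In the latter pair the PBS values ranged from -2.07 to -0.93 and enclosed all SP values (-1.74 to -1.29).

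The members also shared a pattern among samples of 1 group. PBS replicate 2 held the lowest PBS value of 9 members, while it was the lowest PBS array in 36.3% of all rows. The exception was Rela, in which replicates 1 and 2 were nearly equal. SP replicate 3 held the highest SP value of 9 members and was the highest SP array in 41.1% of all rows, with Nfkbie as the exception. The SD was larger in PBS than in SP for 9 members, all but Nfkb1, compared with 34.3% of all rows. With both of these arrays left out, a setting chosen after seeing the data, 6 members were called at 2-fold in place of 7, as Rel was then just under 2-fold (0.97 log2 units, adjusted p = 0.000238 by limma). Without these arrays Bcl3 was not called (0.55, adjusted p = 0.0925).

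Epithelial and endothelial markers moved with the same arrays and with the groups, and other marker lists did so only in part. Most markers of the labelled cell type were bright: S100a8 lay at 13.20 ± 0.057 in PBS and 13.01 ± 0.22 in SP (SD, n = 4 each), and of 11 neutrophil genes with a row 3 were called lower (Retnlg, Mmp8 and Mmp9), none by 2-fold. Camp, a granule protein of immature neutrophils, was dimmer, from 7.07 to 8.36 in PBS and from 7.60 to 10.94 in SP, with its highest value on SP replicate 3. Ly6g itself had no matched row. The neutrophil list averaged 12.25 to 12.50 on PBS arrays and 11.69 to 12.84 on SP arrays, its lowest PBS mean being that of replicate 2 and its highest SP mean that of replicate 3. Epithelial and endothelial lists were lower in SP, where 11.3% of all rows were at least 2-fold lower. At least 2-fold lower values were found for 9 of 10 ciliated and club cell genes (list means 11.00 to 11.63 in PBS, 8.67 to 9.45 in SP), 8 of 13 alveolar epithelial genes (10.88 to 11.47 and 9.39 to 10.44) and 8 of 12 endothelial genes (10.27 to 11.15 and 8.78 to 9.93). The highest PBS mean of these 3 lists was on replicate 2 and the lowest SP mean on replicate 3. Single genes of these cells were about as bright as S100a8 in PBS. The brightest of the ciliated and club list, Scgb1a1, lay at 13.63 ± 0.088 in PBS and 13.00 ± 0.036 in SP. The brightest of the alveolar epithelial list, Sftpc, lay at 13.33 ± 0.084 and 12.39 ± 0.34. Most other genes of both lists were dimmer than S100a8 in PBS. The study examined purity only in samples with pneumonia, by stained cytospins, and reports nearly all of those cells as neutrophils. It describes the few other cells as mostly like alveolar macrophages, and reports high Ly6G mRNA in all samples. In such bulk samples fewer cells of a type and less RNA per cell cannot be told apart.

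Markers of monocytes and macrophages, cells that also express NF-κB genes, were at least 2-fold higher in SP for 3 of 10 genes (Ms4a7, Adgre1 and Cd68). Over all rows this share was 6.37%. None of the list was lower by the same rule, against 11.3% of all rows. The list averaged 8.53 to 9.40 in PBS and 8.65 to 9.92 in SP. Its lowest mean in either group was on the same arrays, PBS replicate 2 (8.53), where 9 members were also lowest, and SP replicate 3 (8.65), where 9 members were highest. At least 2-fold lower values were found for 5 of 9 alveolar macrophage genes (Ear2, Mrc1, Pparg, Car4 and Krt79; 9.13 to 9.69 and 8.18 to 8.79), 8 of 10 B cell genes (7.42 to 8.24 and 5.75 to 6.78) and 3 of 10 fibroblast genes (Dcn, Bgn and Mfap4; 8.31 to 9.06 and 7.39 to 9.16). The alveolar macrophage list was mixed, as Chil3 (0.97, adjusted p = 0.0216 by limma) and Cd9 (0.67, 0.000196) were called higher, under 2-fold. Dendritic cell genes, of which Relb is a known regulator, had 1 of 10 higher (Fscn1) and 1 lower (Cd209a) by 2-fold (6.28 to 6.76 and 5.98 to 6.36). Of T and NK cell genes 1 of 11 was at least 2-fold higher (Il7r; 5.63 to 6.25 and 5.92 to 7.03), and of eosinophil genes 1 of 6 was higher (Ear6) and 1 lower (Ear1; 5.84 to 6.70 and 6.28 to 6.54). With lists this short, a count of 1 gene cannot be told from the shares of all rows (6.37% higher, 11.3% lower). These marker genes were named after their values were seen. The part of these cells in the differences of the NF-κB genes was not tested.

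**Figure D3:**
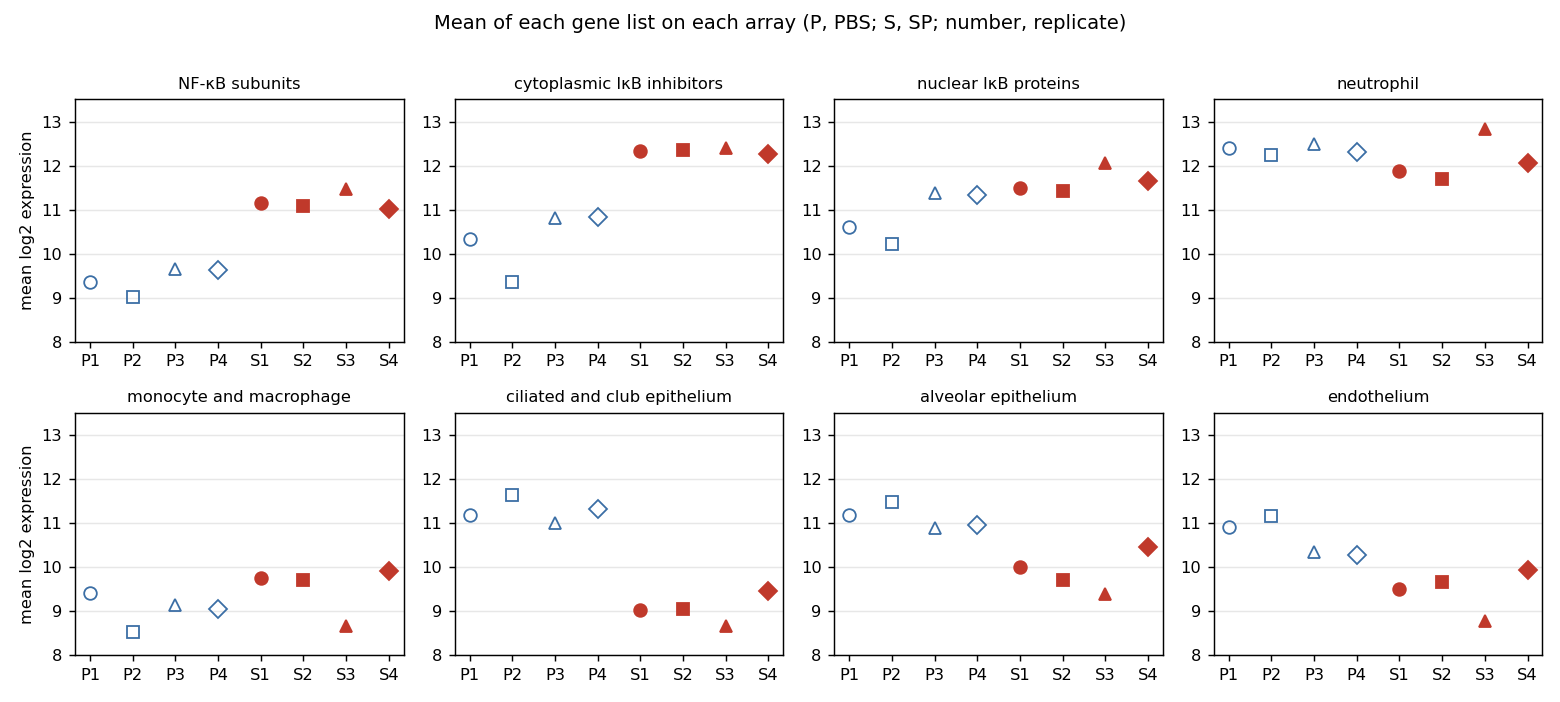
Mean log2 expression (y axis) of the members by class and of 5 marker lists on each of the 4 PBS arrays (P1 to P4, open) and 4 SP arrays (S1 to S4, filled). The inhibitors lie between 9.36 and 10.83 in PBS and between 12.27 and 12.40 in SP, and the epithelial and endothelial lists run the other way.

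Other genes of the pathway were read from 5 lists, in which 5 genes appear more than once. Counting each gene once, 93 of 97 had a row. Of these, 48 were at least 2-fold higher in SP, against 6.37% of all rows. At any size 64 were called higher by limma, against 21.5% of all rows. Calls in the lower direction were 4 (Irak4, Traf5, Btrc and Skp1). Over all rows 10860 of 24625 were called, 5306 of them higher and the others lower. No gene of these lists had a mean at least 2-fold lower in SP, while 11.3% of all rows were called so. The most negative difference was that of Traf5 (-0.87). The 4 genes called lower were named for being few, after their values were seen.

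Of 21 kinases and adaptors upstream of IκB, 9 rose at least 2-fold, and the median difference was 0.55. The largest rises were those of Ikbke, an IKK-related kinase (30.9-fold, from 7.43 ± 0.13 to 12.38 ± 0.057, SD, n = 4), and Malt1, the paracaspase of the CARD-BCL10-MALT1 complex (6.40-fold, adjusted p = 3.71e-06 by limma). The kinases that phosphorylate IκB directly were not called: Chuk differed by -0.29 (adjusted p = 0.0535) and Ikbkb by 0.19 (0.195). Ikbkg, their regulatory subunit NEMO, rose 2.24-fold (0.000158). Of 11 genes of the non-canonical branch, 6 rose at least 2-fold, with a median of 1.16. They included the receptor Cd40 (6.27-fold, 0.000258) and Traf3, which holds the branch in check by directing decay of its kinase NIK (5.07-fold, 1.02e-05). Map3k14, which encodes NIK, lay at 7.44 ± 0.10 in PBS and 7.63 ± 0.27 in SP (adjusted p = 0.267); it was named for this role and not by the rule for naming genes.

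Genes of IκB degradation and of the control of Rel proteins had the smallest median difference of the 5 lists (0.20). Of its 16 genes 2 rose at least 2-fold, against 6.37% of all rows, neither a subunit of the ligase for phosphorylated IκB. Socs1, a suppressor of cytokine signalling, rose 25.5-fold (adjusted p = 4.79e-06 by limma) and Pias4, a SUMO ligase, 2.92-fold (0.000288). Both genes of this list that were called lower belong to that ligase, and the ligase genes named here were chosen after their values were seen. Btrc, its recognition subunit, differed by -0.67 ± 0.11 and Skp1 by -0.66 ± 0.099 (difference ± SE). The other recognition subunit, Fbxw11, the scaffold Cul1 and the RING subunit Rbx1 were called higher, by 0.46, 0.49 and 0.28.

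Deubiquitinases and other brakes on the pathway rose by at least 2-fold in 7 of 13 genes, with a median of 1.10, and none was called lower. The largest rises were those of Tnip1 (12.1-fold) and Tnip3 (7.21-fold), both partners of the deubiquitinase A20 (adjusted p = 4.12e-06 and 6.81e-05 by limma). Of 37 NF-κB target genes, 28 rose at least 2-fold, with a median of 2.39, and none was called lower. The largest rises were those of the cytokine Il1a (35.3-fold) and the granulocyte growth factor Csf3 (28.4-fold). Csf3 lay at 4.45 ± 0.13 in PBS, about the level of the Y-linked genes, so its fold is not exact. Il1a lay at 7.15 on PBS replicate 2 and between 8.63 and 8.73 on the other PBS arrays, again lowest on that array. In SP Il1a lay at 13.43 ± 0.12 (SD, n = 4), brighter than Nfkbia. Whether its rise was compressed near the upper end of the array scale was not tested, so its fold is not exact either. By quantitative PCR of independent samples the study reports a far larger rise of Il1a than on the array.

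**Figure D4:**
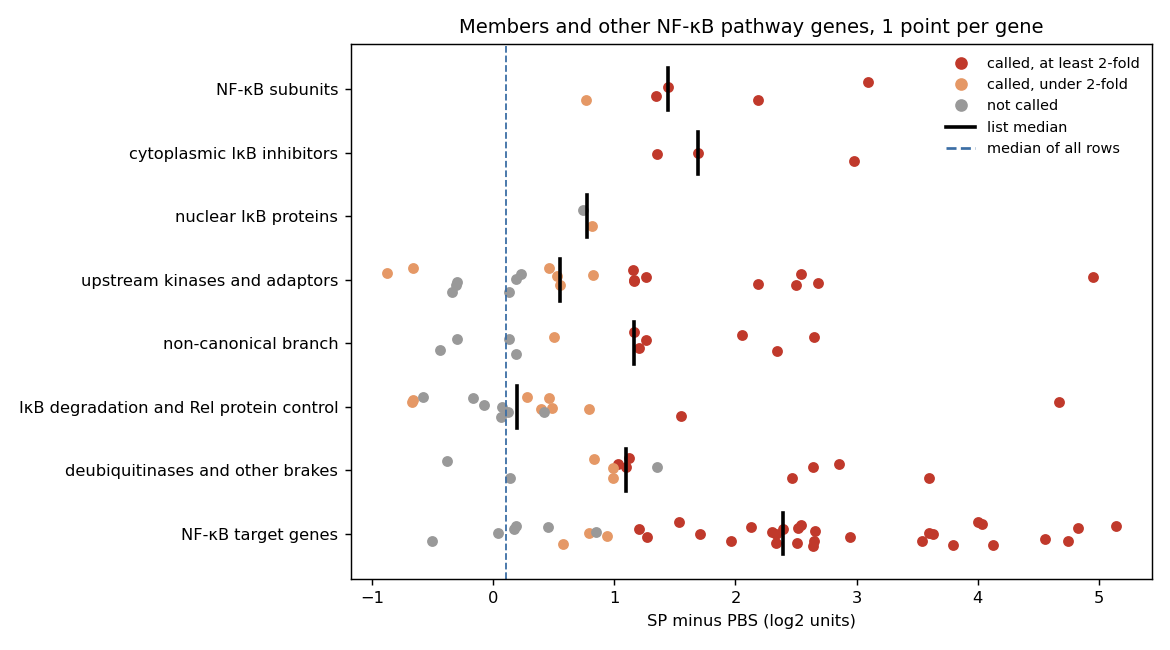
Difference between SP and PBS in log2 units (x axis) for each gene of the members' classes and of 5 pathway lists, with list medians as black lines and the median of all rows (0.10) as a dashed line. Points stand for genes, 5 of which appear in more than 1 pathway list, and the vertical scatter within a list carries no value. Target genes reach furthest to the right, and the degradation list centres near the median of all rows.

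For each member the gene with the most similar profile was sought among 19835 others, by the root mean square (RMS) difference of values centred on each gene's mean over the 8 arrays. Small values mean that a pair of genes kept nearly the same course over the arrays. The nearest gene was Susd6 for Rela (RMS 0.058 log2 units), C130026I21Rik for Rel (0.096), C9orf72 for Relb (0.17), Aff1 for Nfkb1 (0.095) and Fas for Nfkb2 (0.080). For the IκB genes it was Irf9 for Nfkbia (0.066), Ddx58 for Nfkbib (0.10), Oasl1 for Nfkbie (0.13), Sgms2 for Nfkbiz (0.051) and Ccnl1 for Bcl3 (0.097). Relb and Nfkbie, which had the largest differences, also lay farthest from their nearest gene. Within the family the closest pair was Rel and Nfkbia, each among the 3 genes nearest to the other. For Rela the closest member, Bcl3, ranked only 1692 among its nearest genes. Values were centred but not scaled, so these distances and ranks also depend on how many genes have a difference of like size. The distances describe likeness over 8 arrays and were not tested.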

How the data were processed

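Per the methods, the authors corrected probe signals for background, GC content and sequence, then applied quantile normalization and a median polish over the probes of each gene (RMA). The deposited values are on a log2 scale, 1 column per sample, and are relative within an array. Total RNA per cell cannot be read from them. Array medians lay between 6.06 and 6.20 in PBS and 5.78 and 5.91 in SP. Groups and replicate numbers followed the sample titles. Rows (19915 of 24625, 80.9%) were named through RefSeq accessions without versions.

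SP was compared with PBS across all rows with limma 3.58.1 (R 4.3.3; lmFit, eBayes, two-sided, Benjamini-Hochberg adjustment over all rows), in place of the methods' one-way ANOVA, which was an alternative. Called means an adjusted p of at most 0.05, and 2-fold a difference of at least 1 log2 unit. On simulated data of 24625 rows with 200 changed by one size, limma recovered 93% with 10 false calls. The planted size was above the differences of Rela, Rel, Nfkb1, Nfkbia, Nfkbiz and Bcl3. Its noise was independent between samples and equal in both groups, so the simulation checked the code and not the power for the members. Pairs of members were compared by exact permutation. Tables and figures were made with Python 3.11.15.

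Members, gene lists and pairs were chosen with earlier results of these data known. Genes were named by rule: all members, Nfkbid, the 2 largest rises and the largest fall called at 2-fold in each pathway list, Chuk, Ikbkb and Ikbkg, and the nearest gene of each member. Alternatives were the ANOVA, an intensity trend with a robust prior, the replicate number as a block, centred arrays, quantile normalization, array weights, dim rows left out and each sample left out in turn. One marker gene of the lists is not reported here and was left out of its list.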

Additional observations from a re-analysis of the deposited data

Results flagged for a closer look

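Values far from the other samples of a group were sought with Dixon's ratio at its 95% critical value for 4 samples in 22 groups, the 10 members and Nfkbid in PBS and in SP. Chance flags about 1 in 20 groups, and 2 of 22 were found. The value of Rel on PBS replicate 2 (9.86) lay far below the other PBS values, with a ratio of 0.852. The value of Nfkb1 on SP replicate 3 (11.94) lay far above the other SP values, with a ratio of 0.888. Without these arrays, one at a time, the differences were 1.04 for Rel and 1.32 for Nfkb1 in log2 units, and both kept an adjusted p under the threshold by limma.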

How the results depend on the processing

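All 10 members were higher in SP under all 16 alternative settings, and 8 of them, all but Bcl3 and Nfkbiz, were called in each. The count at 2-fold was 7 in 14 settings, 10 with arrays centred on their medians and 6 without PBS replicate 2 and SP replicate 3 together, a setting chosen after seeing the data. Centring raised every difference by 0.28, and with it 2375 rows were higher and 1896 lower (44.4% lower) in place of 1568 and 2773 (63.9%). Another quantile normalization gave 53.9% lower and moved the median of all rows by -0.087. Bcl3 lost its call in 6 of the 16, among them the methods' one-way ANOVA (adjusted p = 0.0567). Nfkbid gained one in 6, with differences of 0.77 to 1.66. The study does not say that the replicate numbers pair mice. Over all rows the deviations of samples with the same number correlated at 0.016, 0.030, 0.35 and -0.27 (replicates 1 to 4), without a common sign or size. With the replicate number as a block 7 members, 48 pathway genes and 4324 rows were called, against 7, 48 and 4341 without it, and Nfkbiz gained a call. For the pairs, permuting signs within numbered pairs left the shifts of Relb minus Rela (2.33), Nfkb2 minus Nfkb1 (0.74) and Nfkbie minus Nfkbia (1.62) at p = 0.125 by an exact permutation test, the smallest it allows. Leaving out 1 sample gave shifts of 2.19 to 2.40, 0.68 to 0.82 and 1.42 to 1.73 for these pairs, and 0.23 to 0.44 for Nfkbib minus Nfkbia, which reached p = 0.0286 (exact permutation) without PBS replicate 2 (0.44). Near 0 the sign changed for Bcl3 minus Nfkbiz (-0.0016 to 0.20) without PBS replicate 1, and for Nfkb1 minus Nfkbia (-0.041 to 0.34) when PBS replicate 3 (-0.0081), PBS replicate 4 (-0.041) or SP replicate 3 (-0.0019) was left out. The cause was not tested.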
